A study of Caenorhabditis elegans with 12 samples.

Results

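The 10 genes described here encode enzymes that remove reactive oxygen species in Caenorhabditis elegans. They are the 5 superoxide dismutases sod-1 to sod-5, the 3 catalases ctl-1 to ctl-3, the peroxiredoxin prdx-2 and the thioredoxin trx-2, which stands beside the peroxiredoxins as a reducing partner. They were chosen by name from the 46904 genes of the deposited table, of which 19509 had a count in at least 1 library, and the rule used names only, no measured values. The choice was made with earlier results of these data known. RNA-seq libraries were made from pooled whole animals, 3 biological replicates in each of 4 groups. Animals were wild-type N2 or carried the single mutant allele pmk-1(km25), which affects the p38 mitogen-activated protein kinase of the worm's immune and stress pathway. On day 1 of adulthood they spent 4 h without bacterial food in a solution of 100 mM NaCl or 100 mM KCl, so every group was starved in a salt solution and no group was kept on food. The study asked which genes respond to low potassium and which of them depend on pmk-1. NaCl and KCl animals differed in sodium as well as in potassium, and these cannot be told apart.

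Superoxide leaks from mitochondrial respiration and is made by oxidases, and superoxide dismutases convert it to hydrogen peroxide. Catalases break hydrogen peroxide down directly, whereas peroxiredoxins reduce it through a reactive cysteine that is in turn recharged by thioredoxin. In the worm these enzymes are divided by compartment, and several of them, sod-3 above all, are known targets of the FOXO transcription factor DAF-16 in the insulin pathway.

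Library totals ran from 8931797 to 11445709 counts, and the replicates of each group differed by more than sampling noise (chi-square per degree of freedom 4.88 to 69.8). The pmk-1 gene itself had 308 to 358 counts in KCl and 217 to 441 in NaCl in wild type, and 206 to 242 (KCl) and 180 to 231 (NaCl) in the mutant. A count over the whole gene does not show whether the mutated part was read. The genotypes also differed in sperm and embryo RNA, and in some markers of other tissues. The 14 sperm markers summed to 3.01 to 82.9 CPM (counts scaled to a common library size) over the wild-type libraries and to 533.6 to 2065 CPM over the pmk-1 libraries. The 10 embryo markers summed to 63.1 to 158.2 CPM in wild type and 18.2 to 46.9 CPM in pmk-1. In edgeR 14 sperm markers were higher in pmk-1 in NaCl and 13 in KCl, and 6 of 9 tested embryo markers were lower in each salt. Of all tested genes 26.8% were called in NaCl, and in KCl 15.2% rose and 9.18% fell. Of 10 oocyte markers 0 were called. In each salt 1 of 5 body wall muscle markers was higher, and 1 of 4 epidermis and 1 of 5 neuron markers higher and 1 lower. Of 8 intestine markers 1 rose in NaCl and 2 in KCl, and of 4 pharynx markers 0 and 1. Epidermis sums were 860.6 to 1210 CPM in wild type and 1545 to 2321 CPM in pmk-1. In these bulk libraries fewer cells of a type and less RNA per cell cannot be told apart, and the part of sperm and embryo RNA in any genotype difference below was not tested apart from fits with a marker score as a term.

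Ranked by mean CPM per kilobase of exon over the 12 libraries, the 10 genes spanned from prdx-2 at 780.0 to sod-5 at 0.185. After prdx-2 came sod-1 at 272.0, sod-2 at 165.3 and trx-2 at 85.7 CPM per kilobase. The catalases followed in the order ctl-2 (65.9), ctl-1 (50.5) and ctl-3 (18.5), and then sod-4 (12.3) and sod-3 (1.18). The main cytosolic and mitochondrial dismutases were thus far above the other members of their family in these animals. Among neighbours in this order the ranges over 12 libraries overlapped for trx-2 and ctl-2, for ctl-2 and ctl-1, and for ctl-3 and sod-4, and for no other neighbours. Of the 13353 genes that passed a filter on low counts, 98.8% had a lower level per kilobase than prdx-2, 96.9% than sod-1 and 10.2% than sod-3. All members but sod-5 passed that filter, so 9 of 10 could be tested.

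**Figure D1:**
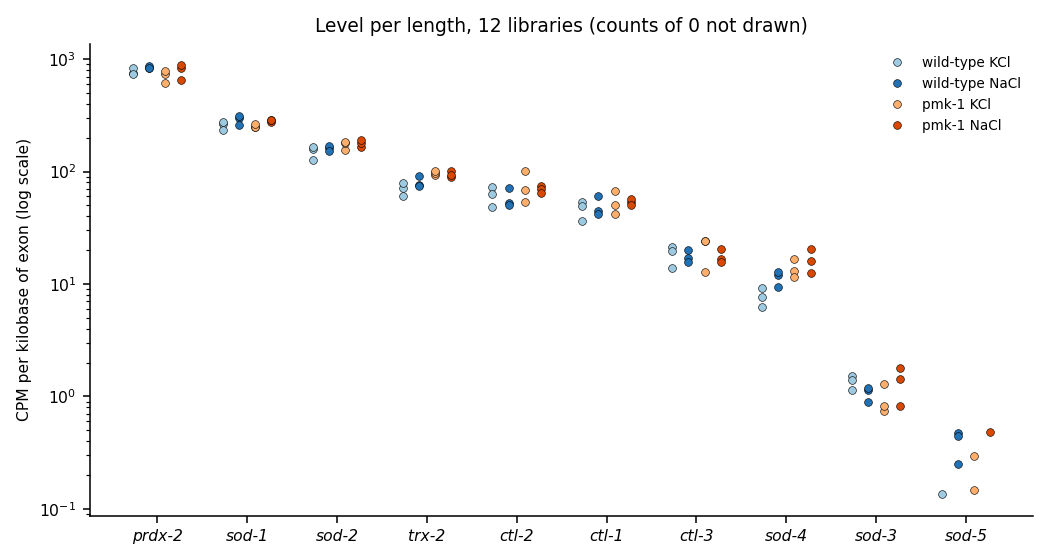
Level of each of the 10 genes in each of the 12 libraries, in CPM per kilobase of exon on a log axis, with colours for the 4 groups (counts of 0 are not drawn). prdx-2 is highest at a mean of 780.0 and sod-5 lowest at 0.185, and among neighbours in the order the ranges overlap for trx-2 and ctl-2, ctl-2 and ctl-1, and ctl-3 and sod-4.

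sod-1, on chromosome II at 6972706 to 6973887 (WBcel235, reverse strand), encodes the main cytosolic copper/zinc superoxide dismutase. Wild-type libraries held 192.3, 198.9 and 169.0 CPM of it in KCl, and 214.6, 223.9 and 186.5 CPM in NaCl. The mutant libraries held 178.5, 180.4 and 192.2 CPM in KCl and 196.8, 209.0 and 207.4 CPM in NaCl. The wild-type salt groups overlapped, while the 3 pmk-1 NaCl libraries all lay above the 3 pmk-1 KCl libraries. On the log2 scale wild type differed by 0.16 ± 0.10 (SE) between NaCl and KCl, the mutant by 0.15 ± 0.10, and neither passed (edgeR adjusted p = 1 and 0.565). Averaged over genotypes it was 0.16 ± 0.07, at an unadjusted p = 0.0476 and an edgeR adjusted p = 0.374. Between genotypes the log2 difference was -0.028 ± 0.10 in NaCl and -0.024 ± 0.10 in KCl, with 95% intervals of -0.24 to 0.19 in both salts. The group means of sod-1 spanned 0.18 on the log2 scale, and 92.3% of the tested genes spanned more.

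sod-2, on chromosome I at 8434550 to 8435807 (forward strand), encodes the main manganese superoxide dismutase of mitochondria. Wild-type means were 121.4 ± 17.0 CPM (SD, n = 3) in KCl with 128.6 ± 6.90 in NaCl, and mutant means 137.9 ± 10.9 in KCl with 142.4 ± 9.40 in NaCl. The lowest library was the third of wild-type KCl, at 102.1 CPM, and all groups that were compared overlapped. NaCl stood above KCl by 0.083 ± 0.12 on the log2 scale in wild type, and by 0.046 ± 0.12 in the mutant. The differences between pmk-1 and wild type were 0.15 ± 0.12 in NaCl and 0.18 ± 0.12 in KCl, where the edgeR adjusted p was 0.267.

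sod-3, on chromosome X at 17092753 to 17094306 (forward strand), encodes the second mitochondrial manganese enzyme and is widely used as a reporter of DAF-16 activity. It was hardly expressed in any group, and wild type had 13, 13 and 10 counts in KCl and 9, 10 and 9 in NaCl. The pmk-1 libraries had 11, 7 and 7 counts in KCl and 11, 14 and 6 in NaCl. In wild type the KCl and NaCl counts met at 10, and the groups of the mutant overlapped widely. NaCl minus KCl came to -0.34 ± 0.41 on the log2 scale in wild type, and to 0.50 ± 0.42 in the mutant. At this depth the 95% intervals ran from -1.24 to 0.56 and from -0.42 to 1.42. Against wild type the mutant stood at 0.34 ± 0.42 in NaCl and -0.50 ± 0.41 in KCl on the log2 scale.

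sod-4, on chromosome III at 9496884 to 9500375 (reverse strand), encodes the extracellular copper/zinc enzyme, made in a secreted and a membrane-bound form. Wild type had 12, 10.1 and 8.22 CPM in its KCl libraries and 15.8, 16.6 and 12.4 CPM in its NaCl libraries. In pmk-1 it was 17.0, 15.1 and 21.8 CPM in KCl and 26.5, 20.9 and 16.5 CPM in NaCl. Each pmk-1 KCl library was thus above each wild-type KCl library, and each wild-type NaCl library above each wild-type KCl library, while the pmk-1 salt groups overlapped, as did the genotypes in NaCl. The gene rose in pmk-1 in KCl by 0.83 ± 0.24 on the log2 scale, which is 1.77-fold with a 95% interval of 1.23 to 2.55 (edgeR adjusted p = 0.0279). In NaCl the genotype difference was 0.51 ± 0.24 and did not pass (edgeR adjusted p = 0.124). In wild type NaCl stood above KCl by 0.56 ± 0.24, at an unadjusted p = 0.0375 but an edgeR adjusted p = 1. In pmk-1 that difference was 0.25 ± 0.24, and averaged over genotypes it was 0.41 ± 0.17 (unadjusted p = 0.0332, edgeR adjusted p = 0.322).

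sod-5, on chromosome II at 4417633 to 4419130 (forward strand), encodes a minor cytosolic copper/zinc enzyme that is known for its expression in dauer larvae. Wild type had 0, 1 and 0 counts in KCl and 3, 3 and 2 in NaCl, and the mutant 1, 0 and 2 in KCl and 3, 0 and 0 in NaCl. The 3 wild-type NaCl libraries lay above the 3 wild-type KCl libraries, on 8 counts against 1 in all. That is a ratio of 8.06 with a counting interval of 1.08 to 357.7, which covers counting error only. With no filter on low counts, a fit of 19509 genes gave an edgeR unadjusted p = 0.0810 and an adjusted p = 1. In pmk-1 both salts had 3 counts. The shares of genes with groups that do not overlap, given below, cover the 13353 tested genes only, so none applies to sod-5.

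**Figure D2:**
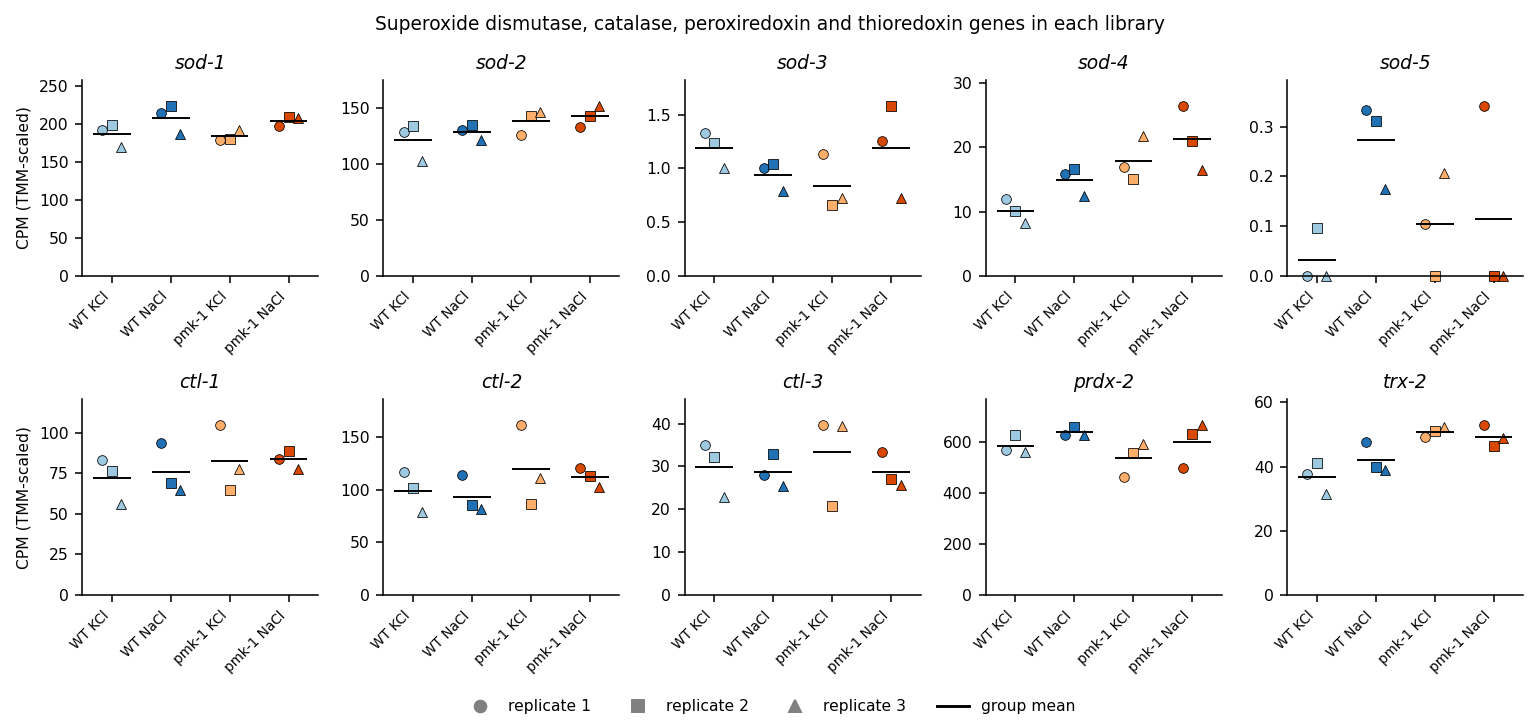
CPM of each of the 10 genes in each of the 12 libraries by group, with marker shapes for the replicate number and a line at each group mean. The 3 pmk-1 KCl libraries of sod-4 (15.1 to 21.8) and of trx-2 (49.1 to 52.3) lie above the 3 wild-type KCl libraries (8.22 to 12 and 31.6 to 41.0), while the catalases overlap in all groups compared.

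The 3 catalase genes lie one after the other on the reverse strand of chromosome II. ctl-2 spans 14299556 to 14302027, ctl-1 spans 14303568 to 14306260 and ctl-3 spans 14307798 to 14310779, with 1540 and 1537 bases between neighbours and 11224 bases in all. ctl-1 encodes the cytosolic and ctl-2 the peroxisomal enzyme, and ctl-3 is known from neurons and pharyngeal muscle. The 3 genes are near copies of each other, so reads that match more than one can be split between them by the estimation of counts. The values of a single catalase are therefore uncertain, and the sum is given beside them.

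Their sum in wild type was 235.1, 210.3 and 157.6 CPM over the KCl libraries and 235.7, 187.3 and 171.6 CPM over the NaCl libraries. The mutant had 306.0, 171.6 and 228.5 CPM over its KCl libraries and 237.9, 229.0 and 206.2 CPM over its NaCl libraries. All compared groups overlapped, and in each of the 4 groups the first replicate was the highest of the 3. The sum differed between NaCl and KCl by -0.020 ± 0.21 on the log2 scale in wild type, and in the mutant by -0.069 ± 0.21. Between pmk-1 and wild type it differed by 0.18 ± 0.21 in NaCl and 0.23 ± 0.21 in KCl, the latter with a 95% interval of -0.23 to 0.68 and an edgeR adjusted p = 0.437. Leaving out the first pmk-1 KCl library, the highest of the 12, took the KCl value to -0.0068, and no sum passed.

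The split among the 3 genes varied little. ctl-2 held 45.6% to 52.8% of the summed counts over the 12 libraries (median 49.5%), ctl-1 34.0% to 39.8% (median 36.6%) and ctl-3 11.9% to 17.5% (median 14.2%). For ctl-1 the group means were 72.0 ± 13.9 (KCl) and 75.9 ± 15.6 CPM (NaCl) for wild type, then 82.3 ± 20.5 (KCl) and 83.5 ± 5.64 CPM (NaCl) for the mutant (SD, n = 3 each). The means of ctl-2 were 99.1 ± 19.5, 93.6 ± 17.7, 119.8 ± 38.3 and 112.1 ± 8.87 CPM in the same order. ctl-3 stood at 29.9 ± 6.37, 28.7 ± 3.80, 33.3 ± 10.9 and 28.7 ± 4.14 CPM. For each catalase the compared groups overlapped, and the largest log2 difference of a single catalase was 0.27 ± 0.22, of ctl-2 between pmk-1 and wild type in KCl (edgeR adjusted p = 0.382).

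**Figure D3:**
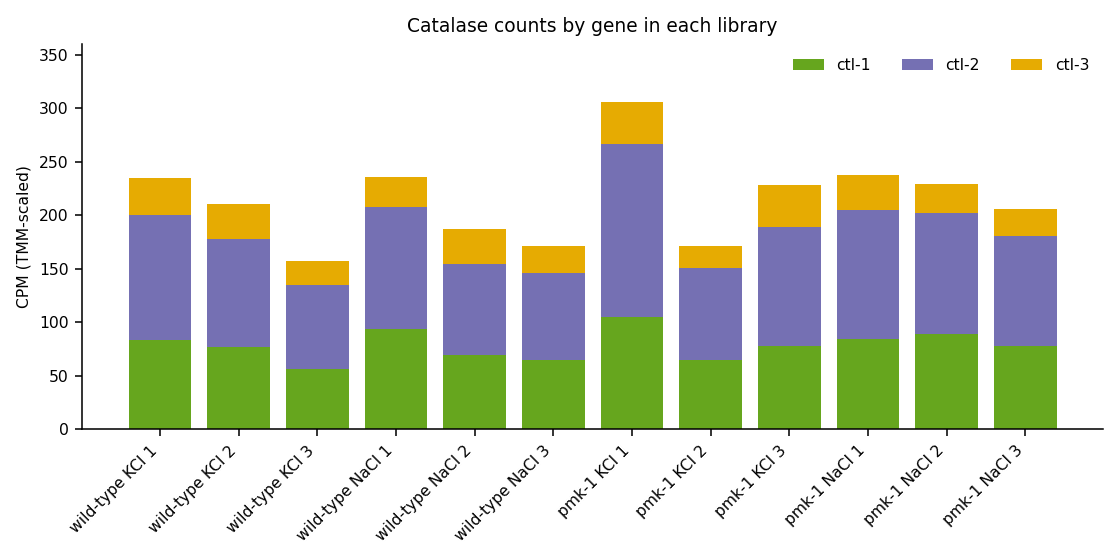
Stacked CPM of ctl-1, ctl-2 and ctl-3 in each of the 12 libraries. The bars run from 157.6 in wild-type KCl to 306.0 in pmk-1 KCl, the first replicate is the tallest in each group, and ctl-2 takes the largest share of every bar, similar from library to library (45.6% to 52.8%).

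prdx-2, on chromosome II at 5378195 to 5379631 (forward strand), encodes the typical 2-Cys peroxiredoxin of the worm and was the most abundant of the 10 genes. Wild-type libraries stood at 567.4, 625.7 and 559.4 CPM in KCl and at 628.1, 660.1 and 628.2 CPM in NaCl. In pmk-1 it stood at 463.9, 555.0 and 592.7 CPM in KCl and 496.4, 632.9 and 666.4 CPM in NaCl. The wild-type NaCl libraries all lay above the wild-type KCl libraries, whereas the pmk-1 groups overlapped and their first replicates were the lowest. Between the salts prdx-2 differed by 0.13 ± 0.13 on the log2 scale in wild type, and by 0.16 ± 0.13 in the mutant. The difference of pmk-1 from wild type was -0.094 ± 0.13 in NaCl and -0.12 ± 0.13 in KCl, and none passed.

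trx-2, on chromosome V at 10314671 to 10315294 (forward strand), encodes the mitochondrial thioredoxin. It held 37.5, 41.0 and 31.6 CPM in the wild-type KCl libraries, and the NaCl libraries of that genotype 47.5, 39.7 and 39.0 CPM. In pmk-1 it was 49.1, 51.0 and 52.3 CPM in KCl and 53.0, 46.3 and 48.8 CPM in NaCl. The pmk-1 KCl libraries all lay above the wild-type KCl libraries, and in NaCl the genotypes overlapped through the first wild-type library. The gene rose in pmk-1 in KCl by 0.47 ± 0.13 on the log2 scale, which is 1.38-fold with a 95% interval of 1.13 to 1.69 (edgeR adjusted p = 0.0242). In NaCl the difference was 0.23 ± 0.13 and did not pass (edgeR adjusted p = 0.199). NaCl minus KCl was 0.20 ± 0.13 in wild type, and -0.042 ± 0.13 in the mutant.

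Between NaCl and KCl none of the 9 tested genes passed in either genotype. In wild type 0 passed (1 at an unadjusted p under 0.05, 0 in DESeq2), against 0.187% of all tested genes called in edgeR. The members' log2 differences had a median of 0.083, from -0.34 to 0.56, beside a median of -0.013 over all tested genes. sod-4 and prdx-2 had NaCl libraries wholly above KCl libraries, as had 6.93% of the tested genes (5.6% wholly below). In pmk-1 animals 0 passed (0 at an unadjusted p under 0.05, 0 in DESeq2), against 2.71% of all tested genes in edgeR. Their median was 0.046, from -0.21 to 0.50, beside -0.0079 over all genes, and sod-1 had groups that did not overlap, as had 9.78% of genes in that direction and 6.34% in the other. Averaged over genotypes 0 of 9 passed, and 2 had an unadjusted p below 0.05 (DESeq2 called 0), with 2.58% of all genes called in edgeR. An unadjusted edgeR p under 0.05 was held by 4.27% of all tested genes in wild-type salt, 13.4% in pmk-1 salt and 13.1% averaged over genotypes.

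Between pmk-1 and wild type, sod-4 and trx-2 passed in KCl, and no member passed in NaCl. In KCl these were 2 of 9 higher and 0 lower in edgeR, where 15.2% of all tested genes were called higher and 9.18% lower, and 24.9% had pmk-1 libraries wholly above wild type and 22.9% wholly below. The median of the 9 genes was 0.18 on the log2 scale, from -0.50 to 0.83, beside 0.020 over all genes. In NaCl 0 of 9 passed (0 at an unadjusted p under 0.05, 0 in DESeq2), against 26.8% of all tested genes in edgeR, and no member had groups that did not overlap, against 29.1% of genes wholly higher and 22.3% wholly lower. Their median there was 0.15, from -0.094 to 0.51, beside 0.057 over all genes. The genotype difference was not shown to depend on the salt: in the interaction test 0 of 9 passed (0 at an unadjusted p under 0.05, 0 in DESeq2), against 0.0374% of all genes in edgeR, and the members' log2 interactions ran from -0.31 to 0.84. Of all tested genes 41.6% had an unadjusted edgeR p under 0.05 between the genotypes in NaCl, and 5.01% in the interaction.

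**Figure D4:**
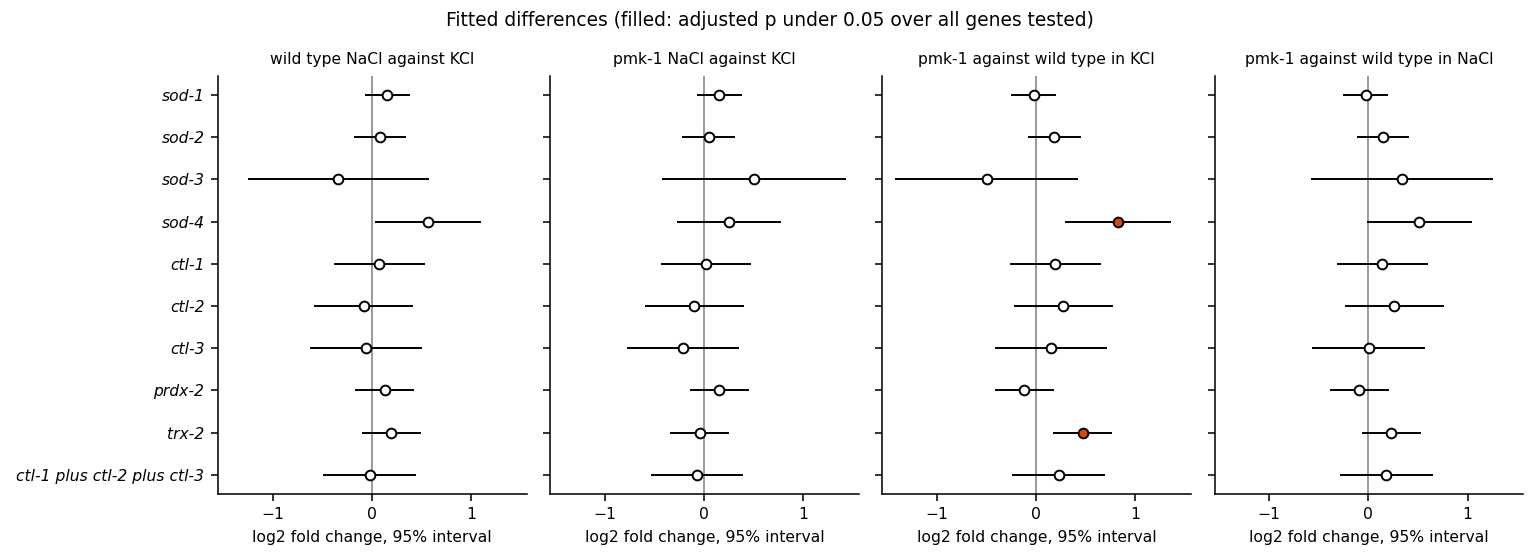
Log2 fold change with its 95% interval for each of the 9 tested genes in the 4 comparisons, with filled points for an edgeR adjusted p under 0.05. The 2 filled points are sod-4 (0.83) and trx-2 (0.47) in pmk-1 against wild type in KCl, and the intervals of sod-3, the gene with the fewest counts among those tested, are the widest.

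Both calls were lost when some single libraries were left out. In edgeR sod-4 lost its call without the second or the third wild-type KCl library (adjusted p = 0.0833 and 0.109) or the third pmk-1 KCl library (0.0797). trx-2 lost it without the first or the third wild-type KCl library (edgeR adjusted p = 0.0556 and 0.0920) or the third pmk-1 KCl library (0.0509). Their log2 differences without any 1 library stayed within 0.68 to 0.96 for sod-4 and 0.38 to 0.55 for trx-2. Without the first replicates of all groups they were 1.03 and 0.54 (edgeR adjusted p = 0.00718 and 0.00999). With an embryo marker score as a term sod-4 stood at 0.76 ± 0.55 (edgeR adjusted p = 0.541) and trx-2 at 0.21 ± 0.31 (0.770), and with a sperm marker score at 0.23 ± 0.43 and 0.12 ± 0.24 (both 0.974). The sperm score was -4.61 to -0.49 in wild type and 2.06 to 3.94 in pmk-1, and the embryo score 0.89 to 1.83 and -2.25 to -0.58. Neither score overlapped between the genotypes, so these scores and the genotype cannot be told apart.

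**Figure D5:**
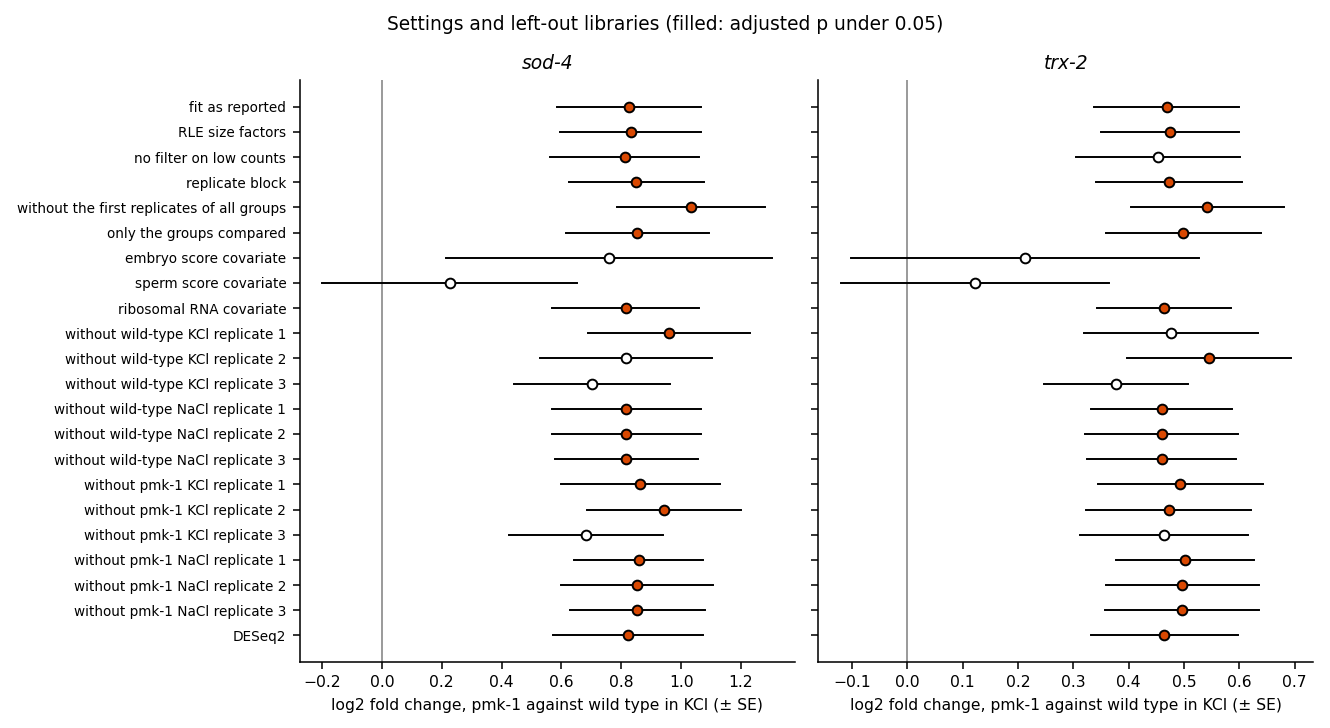
Log2 difference between pmk-1 and wild type in KCl, with its standard error, for sod-4 and trx-2 under 22 settings of the analysis, filled where the edgeR or DESeq2 adjusted p was under 0.05. All values are above 0, the widest errors are those with a sperm or embryo marker score as a term, and the lowest values are those with the sperm score (0.23 and 0.12).

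Reads of some members could also come from a gene on the opposite strand, since the strandedness of the libraries is not given in the sources used here. ctr-9, which encodes a subunit of the PAF1 transcription complex, shares 175 bases with sod-4, or 13.4% of its exons. It stood at 222.1 CPM in wild-type KCl and 177.9 CPM in pmk-1 KCl, a log2 difference of -0.32 ± 0.13 (edgeR adjusted p = 0.0880) in the direction opposite to that of sod-4. asps-1 shares 47 bases with trx-2, or 9.0% of its exons, and differed by -0.10 ± 0.17 on the log2 scale (edgeR adjusted p = 0.689). The other shared stretches were 85 bases in sod-1, 21 in sod-2, 65 in ctl-2, and 65 and 24 in sod-3.

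The genes closest in pattern to the 2 called members were sought among 6039 named genes by Pearson's correlation of log2 CPM over the 12 libraries, which share their groups, germline content and depth. For sod-4 these were the ribosomal protein genes rps-17 (r = 0.949), rpl-22 (0.944) and rps-16 (0.934). For trx-2 they were the transthyretin-related gene ttr-47 (r = 0.959), the antizyme gene oaz-1 (0.931) and ddp-1 (0.923), which encodes a small chaperone of mitochondrial protein import. These values describe the 12 libraries and carry no test.

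Further genes that handle peroxide, or that supply and regulate the members, were read from lists chosen by function, with earlier results of these data known. Of all tested genes, edgeR called 0.187% between the salts in wild type, 2.71% in pmk-1 and 2.58% averaged over genotypes. Between the genotypes it called 26.8% in NaCl, and in KCl 15.2% rose and 9.18% fell. At an unadjusted edgeR p under 0.05 the salt shares were 4.27%, 13.4% and 13.1% in the same order. Between the genotypes they were 41.6% in NaCl and 38.3% in KCl. Of 9 tested genes of the thioredoxin and peroxiredoxin system outside the 10, 0 passed in edgeR in wild-type salt, where 1 had an unadjusted p below 0.05 and DESeq2 called 0, and the genotype comparison in KCl gave the same counts. The intestinal thioredoxin gene trx-3 rose in pmk-1 in NaCl from 2.49 to 12.1 CPM (log2 2.28 ± 0.54, edgeR adjusted p = 0.0474). Its call was lost without 10 of the 12 libraries, up to an edgeR adjusted p = 0.219 without the third pmk-1 KCl library. Without the first pmk-1 NaCl library the log2 value was 1.46 ± 0.45 (edgeR adjusted p = 0.159), with the ribosomal RNA share as a term 3.13 ± 0.72 (0.0730), and with only the groups compared 2.26 ± 0.63 (0.269). In wild type it stood at 3.32 and 9.39 CPM (log2 1.49 ± 0.52, edgeR adjusted p = 0.688), and averaged over genotypes it rose by 1.89 ± 0.37 (0.0193; up to 0.0688 without the third pmk-1 KCl library). That averaged call was lost in 7 of 12 fits with 1 library left out. The sestrin gene sesn-1 was higher in pmk-1 in NaCl by 1.31 ± 0.41 (edgeR adjusted p = 0.0337; up to 0.180 without the first pmk-1 NaCl library). With the replicate number as a block 2 genes of this list rose in that comparison.

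Of 13 tested glutathione peroxidases, glutaredoxins and glutathione reductase, 1 rose and 1 fell in pmk-1 in KCl, and 0 passed in the other comparisons. Of all tested genes 15.2% rose and 9.18% fell between the genotypes in KCl, and 26.8% were called in NaCl. The peroxidase gene gpx-6 rose in KCl by 1.38 ± 0.38 on the log2 scale (edgeR adjusted p = 0.0218, and up to 0.0951 without the third wild-type KCl library). Its level there was low, at 1.71 CPM in wild type and 4.48 CPM in pmk-1. In NaCl it stood at 1.80 and 1.89 CPM (log2 0.071 ± 0.38). gsr-1, the glutathione reductase, fell by 0.41 ± 0.13 on the log2 scale (edgeR adjusted p = 0.0478; up to 0.158 without the first pmk-1 KCl library). Its call was lost in 10 of 12 fits with 1 library left out. In NaCl the genotype comparison had 2 of the 13 genes higher and 2 lower at an unadjusted p under 0.05, 1 called in DESeq2, and 1 higher and 1 lower in edgeR with the replicate block. Of all tested genes 41.6% had such an unadjusted edgeR p there. In wild-type salt 0 had an unadjusted p under 0.05, and in pmk-1 salt 1 higher and 1 lower had (0 called in DESeq2 in both). The shares of all tested genes were 4.27% in wild-type salt and 13.4% in pmk-1 salt.

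The haem peroxidases and the dual oxidase system generate and use hydrogen peroxide to crosslink cuticle. Of their 7 tested genes, 2 rose and 1 fell in pmk-1 in each salt in edgeR. Of all tested genes, 26.8% were called between the genotypes in NaCl in either direction, and in KCl 15.2% rose and 9.18% fell. mlt-7 was higher in pmk-1 by 2.54 ± 0.57 in NaCl and 2.15 ± 0.55 in KCl, and skpo-3 by 2.61 ± 0.48 and 1.76 ± 0.46 (log2; edgeR adjusted p from 0.00495 to 0.0182). skpo-1 fell by 0.86 ± 0.18 in NaCl and 0.90 ± 0.18 in KCl on the log2 scale (edgeR adjusted p = 0.00703 and 0.00648). In KCl, mlt-7 and skpo-3 reached an edgeR adjusted p of 0.0778 and 0.0773 without the third wild-type KCl library. With the replicate block 4 rose and 1 fell in NaCl, and between the salts 1 gene fell in each genotype where 0 passed without it (0 at an unadjusted p under 0.05, 0 in DESeq2). In NaCl both values were 1.75 without the first pmk-1 NaCl library, and both genes kept their calls. The dual oxidase gene bli-3 itself did not pass (0.66 ± 0.29 in NaCl, edgeR adjusted p = 0.110).

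Of 11 peroxisome biogenesis genes, 0 passed between the salts in edgeR (in wild type 0 at an unadjusted p under 0.05, in pmk-1 2; 0 in DESeq2), and 1 rose in each genotype comparison. These were the peroxin genes prx-13 in NaCl (0.63 ± 0.21, edgeR adjusted p = 0.0427) and prx-2 in KCl (1.27 ± 0.30, 0.0119; 0.0545 without the third wild-type KCl library). The prx-13 call was lost in 11 of 12 fits with 1 library left out, up to an edgeR adjusted p = 0.166 without the third wild-type NaCl library. It was also lost in edgeR with no filter (0.0749), only the groups compared (0.112) and the ribosomal RNA share as a term (0.148). Of 5 tested genes of copper and manganese supply, the metals that dismutases bind, 1 fell in each genotype comparison and 0 passed between the salts (1 at an unadjusted p under 0.05 in pmk-1, 0 in wild type, 0 in DESeq2). It was smf-1, a manganese transporter gene, which fell by 0.77 ± 0.22 in NaCl and 0.81 ± 0.22 in KCl on the log2 scale (edgeR adjusted p = 0.0269 and 0.0225; up to 0.103 and 0.0726 without the third wild-type library of the same salt). With the replicate block 1 further gene of that list rose in NaCl. Without the block 26.8% of all tested genes were called between the genotypes in NaCl, and in KCl 15.2% rose and 9.18% fell. Between the salts 4.27% of all tested genes in wild type and 13.4% in pmk-1 had an unadjusted edgeR p under 0.05.

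Among 18 regulators of antioxidant genes, pqm-1, a zinc finger transcription factor that acts in opposition to DAF-16, rose in NaCl in both genotypes. It went from 15.95 to 44.6 CPM in wild type (log2 1.48 ± 0.17, edgeR adjusted p = 0.00783; up to 0.0821 without the third wild-type KCl library) and from 24.5 to 51.9 CPM in pmk-1 (1.08 ± 0.17, 0.00547; 0.134 with only the groups compared in the fit). tir-1, whose SARM-type adaptor protein starts the p38 cascade, rose in NaCl in pmk-1 by 1.73 ± 0.24 (edgeR adjusted p = 0.00337). These were 1 of 18 regulators in wild type and 2 of 18 in pmk-1, beside 0.187% and 2.71% of all tested genes. Between genotypes 2 of 18 rose in NaCl, the kinase genes akt-2 (0.74 ± 0.23) and sgk-1 (0.74 ± 0.23) of the insulin pathway. Of all tested genes 26.8% were called there in either direction. With the replicate block 5 rose and 4 fell, for which the share of all genes is not given here. In KCl 5 rose and 3 fell in edgeR, where the shares of all tested genes were 15.2% and 9.18%. Among the 3 was pmk-1, the mutated gene itself, at -0.59 ± 0.18 on the log2 scale (edgeR adjusted p = 0.0326; up to 0.128 without the third wild-type KCl library). In KCl that call was lost in 7 of 12 fits with 1 library left out. daf-16 rose there by 0.42 ± 0.11 (edgeR adjusted p = 0.0186; up to 0.0879 without the second wild-type KCl library) and tir-1 fell by 1.00 ± 0.24 on the log2 scale (0.0128; 0.0695 without the third wild-type KCl library). akt-2 (0.83 ± 0.23) and pqm-1 (0.62 ± 0.17) rose as well (both edgeR adjusted p = 0.0218; up to 0.0920 and 0.0829 without the third wild-type KCl library). In NaCl akt-2 and sgk-1 reached an edgeR adjusted p of 0.142 and 0.146 without the first pmk-1 NaCl library. With 1 library left out the NaCl call of akt-2 was lost in 4 of 12 fits and that of sgk-1 in 8.

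Of all tested genes, edgeR called 0.187% between the salts in wild type and 2.71% in pmk-1. Of 5 tested genes known downstream of DAF-16, other than the 10 members, 1 rose in NaCl in each genotype. This was dod-3, from 24.4 to 109.3 CPM in wild type (log2 2.16 ± 0.30, edgeR adjusted p = 0.0157; up to 0.127 without the first wild-type KCl library) and from 33.2 to 135.2 CPM in pmk-1 (2.03 ± 0.30, 0.00423; 0.0584 with the ribosomal RNA share as a term). With the replicate block 1 gene of this list fell in pmk-1 as well. Without the block the list ran there from -2.80 to 2.03 on the log2 scale, with a median of -0.32. In that fit 1 gene was lower at an unadjusted p under 0.05, and DESeq2 called 2 genes. Of all tested genes 13.4% had such an unadjusted edgeR p there, in either direction. The metallothionein gene mtl-1 rose in pmk-1 in KCl from 7.68 to 58.6 CPM (2.93 ± 0.69, edgeR adjusted p = 0.0116; 0.0592 without the third wild-type KCl library), and in NaCl 0 of 5 passed (0 at an unadjusted p under 0.05, 0 in DESeq2). In KCl mtl-1 was the 1 of 5 that rose, beside 15.2% of all tested genes that rose and 9.18% that fell. In NaCl 26.8% of all tested genes were called, and 41.6% had an unadjusted edgeR p under 0.05. sod-3, the member known as a target of the same factor, stayed at 6 to 14 counts a library in all groups. Like sod-4 and trx-2, all 8 list genes called between genotypes in NaCl and all 16 in KCl lost their calls with an embryo or a sperm score as a term. Most standard errors grew in those fits, and some differences kept their size. In KCl tir-1 stood at -1.14 ± 0.60 with the embryo score and daf-16 at 0.40 ± 0.23 with the sperm score. Others shrank, with tir-1 at -0.39 ± 0.44 with the sperm score and mtl-1 at 0.78 ± 1.16 with the embryo score. In KCl 4 of the 16 changed sign with each score. In NaCl 1 of the 8 changed sign with the embryo score and 2 with the sperm score. With only the groups compared 2 of the 4 list genes called between the salts in pmk-1, and 4 of the 8 between genotypes in NaCl, kept their calls in edgeR.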

How the data were processed

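Whole-animal RNA-seq of 12 libraries was read from the deposited table of estimated counts per gene. All deposited values are whole numbers (0 were not whole). RSEM 1.3.3, STAR 2.7.1a, DESeq2 1.40.2 and R 4.3.1 appear, without roles, per the submitters' processing notes. No source used here gives the genome build, annotation or strandedness behind the counts. Coordinates, exon lengths and overlaps come from Ensembl release 115 (WBcel235), in which 46817 of 46904 gene IDs matched. No sequences were used here, so close copies were judged by name and position.

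All genes were fitted together in edgeR 4.0.16 (R 4.3.3): filterByExpr (minimum count 10), TMM scaling, 1 mean per group, quasi-likelihood tests, and Benjamini-Hochberg adjustment over 13353 genes at 0.05. Standard errors are the log2 fold change divided by the square root of F, and intervals are 95%. CPM values use the TMM-scaled library size. Alternatives were RLE factors, no filter, DESeq2 1.42.0, the replicate number as a block, each library or all first replicates left out, only the groups compared, and embryo, sperm or ribosomal RNA covariates.

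All 10 members are named whatever their values, and of 7 lists (77 entries, 1 not matched) and 8 marker lists the counts are given, with up to 4 called genes per list and comparison. Genes close in pattern needed a mean of at least 5 CPM. Members and lists were chosen with earlier results of these data known. Labels call the replicates biological, and p-values measure the spread between these libraries. Same-numbered libraries deviated together in both salt comparisons (correlations 0.205 to 0.748) and between genotypes in NaCl (0.228 to 0.412). Replicates 2 and 3 correlated as highly across numbers. In wild-type salt 2 with 3 gave 0.241, beside 0.205 for 2 with 2, and in pmk-1 salt 0.540 beside 0.427. Between genotypes in NaCl 3 with 2 gave 0.237, beside 0.228 for 2 with 2. The numbers therefore do not settle the pairs, and the reported fit has no pairing term.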

Additional observations from a re-analysis of the deposited data

How the results depend on the processing

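Of 815 recomputed values of the members, 724 kept their direction and their side of the threshold, 11 lost a call (all of sod-4 or trx-2 between genotypes in KCl), 0 gained one and 80 changed sign, none of them from a called value. The 2 members called between pmk-1 and wild type in KCl became 1 with no filter on low counts (trx-2, edgeR adjusted p = 0.0525) and 0 with the embryo or the sperm score, and 0 to 2 with single libraries left out. In all other comparisons 0 members were called under every setting. With the replicate number as a block sod-4 stood at 0.85 (edgeR adjusted p = 0.0123) and trx-2 at 0.47 (0.0154) in KCl. There same-numbered libraries of the genotypes correlated at 0.0752 to 0.434, which does not settle the pairs either. No member gained or lost a call under the replicate block.

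Values that changed sign follow by setting, all on the log2 scale and none called after the change. They include list genes that were called in the reported fit: sesn-1, gsr-1, mlt-7, skpo-3, atfs-1, akt-2 and bar-1. With the embryo score the genotype difference in NaCl was -0.66 for the catalase sum, 0.051 for sod-1, -0.26 for sod-3, -0.66 for ctl-1, -0.74 for ctl-2, -0.41 for ctl-3, 0.43 for prdx-2, -0.012 for trx-2 and -0.56 for sesn-1. In KCl it was -0.69 for the catalase sum, 0.059 for sod-1, -0.69 for ctl-1, -0.82 for ctl-2, -0.27 for ctl-3, 0.43 for prdx-2, 0.23 for gsr-1, -0.38 for mlt-7, -0.82 for skpo-3 and 0.18 for atfs-1. The interaction of the catalase sum was 0.027.

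With the sperm score the NaCl values were -0.65 for the catalase sum, -0.34 for sod-3, -0.10 for sod-4, -0.68 for ctl-1, -0.66 for ctl-2, -0.57 for ctl-3, 0.16 for prdx-2, -0.11 for trx-2, -0.14 for mlt-7 and -0.31 for akt-2. The KCl values were -0.64 for the catalase sum, -0.67 for ctl-1, -0.68 for ctl-2, -0.41 for ctl-3, 0.14 for prdx-2, -0.52 for mlt-7, -0.23 for akt-2, 0.16 for atfs-1 and -0.13 for bar-1. ctl-1 between the salts in pmk-1 was -0.0060.

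Without the first replicates, ctl-3 was 0.092 in wild-type salt and -0.17 between genotypes in NaCl, and sod-1 was 0.052 between genotypes in KCl. In pmk-1 salt the catalase sum was 0.069, sod-2 -0.026, sod-4 -0.023 and ctl-2 0.073. The catalase sum was 0.093 in the interaction and 0.023 averaged over genotypes. With the ribosomal RNA share, pmk-1 salt values were -0.20 for sod-2, -0.089 for ctl-1 and -0.11 for prdx-2, and genotype values in NaCl -0.13 for sod-2 and -0.10 for ctl-3. ctl-1 in pmk-1 salt was -0.013 with RLE factors, -0.0019 with only the groups compared, -0.011 in DESeq2, -0.069 as the sum of 3 catalases and -0.041 as the sum of ctl-1 and ctl-3. ctl-3 between genotypes in NaCl was -0.017 with RLE, -0.014 with no filter, -0.013 with the replicate block, -0.025 with only the groups compared and -0.026 in DESeq2. In wild-type salt the 3 catalases summed gave -0.020 where ctl-1 alone was 0.075, and ctl-1 plus ctl-3 gave 0.037 where ctl-3 alone was -0.060. sod-1 between genotypes in KCl was 0.0065 with only the groups compared.

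With single libraries left out, wild-type salt values ran from -0.16 to 0.11 for the catalase sum, -0.10 to 0.19 for ctl-1, -0.25 to 0.057 for ctl-2, -0.22 to 0.064 for ctl-3 and -0.022 to 0.16 for sod-2. In pmk-1 salt they ran from -0.28 to 0.17 for the sum, -0.15 to 0.23 for ctl-1, -0.31 to 0.18 for ctl-2 and -0.039 to 0.048 for sod-2. Genotype values in KCl ran from -0.0068 to 0.42 for the sum, -0.018 to 0.35 for ctl-1, -0.0027 to 0.47 for ctl-2, -0.0067 to 0.41 for ctl-3 and -0.085 to 0.014 for sod-1. In NaCl they ran from -0.16 to 0.099 for ctl-3 and -0.11 to 0.018 for sod-1. The sum ran from -0.27 to 0.19 in the interaction and -0.15 to 0.073 averaged over genotypes. Beyond what is stated, the cause was not tested. Depth limits sod-3, at 6 to 14 counts a library, and sod-5, at 0 to 3.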
